A study of Bos taurus with 3 samples.

Results

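Keratinocytes of the rumen that held almost no mitochondrial RNA were examined in the 3 lactating Holstein cows of the study. The cells were chosen by their mitochondrial UMIs alone. A cell was included when its 13 mitochondrial protein genes (*ND1* to *ND6*, *ND4L*, *COX1* to *COX3*, *ATP6*, *ATP8* and *CYTB*) together gave under 1% of its unique molecular identifiers (UMIs, each standing for 1 captured RNA molecule). This rule found 242 of the 20728 deposited cells, 92 of 3369 in cow 1, 31 of 7401 in cow 2 and 119 of 9958 in cow 3. They are called low-mitochondrial cells here, and the 20486 cells at 1% or more are called other cells. All cows were adult Holstein dairy cows sampled in 1 condition, and their ages were not given. Epithelium of the ventral sac was dissociated with trypsin and other enzymes, dead cells were removed with magnetic beads, and 1 droplet library with 3' end capture was made per cow. The authors kept only epithelial cells, and their filter on mitochondrial RNA removed cells with a high share but none with a low share. They also removed cells with few detected genes, so any low-mitochondrial cells below that limit are missing here. The chosen threshold fixed the mitochondrial values, so these are described without a test, and the tests below concern the other genes.

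The rumen is lined by a stratified squamous epithelium that absorbs the volatile fatty acids (VFAs) made by microbes. Basal keratinocytes divide on the basement membrane, their daughters move up through the spinous and granular layers, and the uppermost cells crosslink a protein envelope under their membrane, lose their organelles and become corneocytes. The mitochondrial genome encodes core subunits of the respiratory chain and the ribosomal and transfer RNAs that serve their translation. The other subunits, the proteins of the mitochondrial ribosome and the enzymes of the mitochondrial matrix are made from nuclear genes.

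The 1% threshold lay in a thinly filled range of mitochondrial shares, most clearly in cows 2 and 3. The medians were set apart by the threshold itself. Median shares of 0.501%, 0.212% and 0.172% were found in cows 1, 2 and 3, while the medians of the other cells were 17.5%, 10.8% and 12.5%. In molecules, the medians were 14, 8 and 5 mitochondrial UMIs per cell against 1772, 1338 and 1282, and 1 cell of cow 3 held none. Every interval around the threshold held some cells. The range from 0.75% to 1% held 18, 3 and 4 cells, and the range from 1% to 2% held 14, 7 and 7. The 3 cells just inside had shares of 0.965%, 0.995% and 0.999%, and the 3 just outside had 1.05%, 1.09% and 1.09%. Low-mitochondrial cells made up 2.73%, 0.419% and 1.20% of the 3 cows' cells, a mean of 1.45% ± 1.18 (SD, n = 3). Cow 1, which had the largest proportion, also had the highest mitochondrial share in its other cells. Of all cells, 35 barcodes occurred in at least 2 libraries. Among the low-mitochondrial cells alone, no barcode occurred in at least 2 libraries. Whether any of them shared a barcode with the other cells of another library was not checked.

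**Figure D1:**
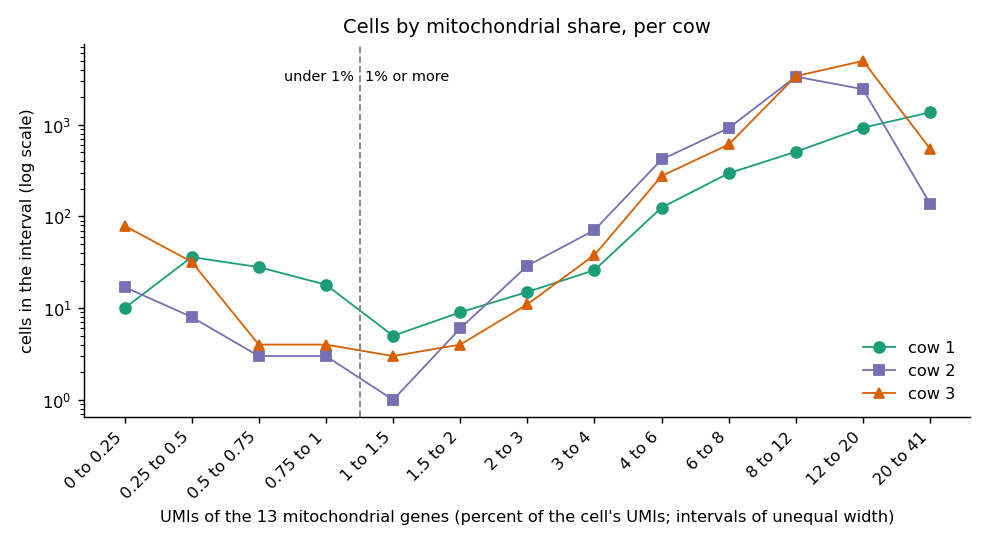
Number of cells (log axis) in each interval of the mitochondrial share of UMIs (percent), 1 line per cow, with the dashed line at 1%. The intervals from 1% to 2% together hold between 7 and 14 cells per cow, fewer than lie to the left of the line, and the counts rise again above 2%.

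The levels of the 13 genes, which the choice of cells made low together, are given per 10000 UMIs of all genes as a description. *COX1*, the catalytic subunit of cytochrome c oxidase, was at 6.90 ± 3.66 (SD, n = 3 cows) in low-mitochondrial cells and 332 ± 67.5 in other cells. *COX3*, another subunit of the same complex, was at 7.19 ± 3.31 and 297 ± 71.0, and *CYTB* of complex III was at 2.58 ± 1.19 and 171 ± 56.0. *ND6*, a subunit of complex I, had 0 UMIs in all 242 cells and 2.20 ± 1.65 in the others. Within the few mitochondrial UMIs that remained, some abundant genes had proportions near those of the other cells, but others did not. *COX1* gave 23.2% ± 2.17 of the 13-gene total in low-mitochondrial cells and 23.2% ± 1.85 in other cells. *ATP6* of the ATP synthase gave 8.77% ± 2.75 and 9.66% ± 1.77. *COX3* gave 24.6% ± 1.03 and 20.7% ± 1.72 and was higher in each cow. *CYTB* was lower in each cow, at 8.92%, 6.08% and 12.4% against 12.1%, 9.94% and 13.1%. *ATP8*, a small subunit of the ATP synthase, gave 0.817%, 0.552% and 0.113% in low-mitochondrial cells of cows 1, 2 and 3 and 0.0992%, 0.0611% and 0.0284% in other cells. Its proportion was higher in each cow, but on 12, 2 and 1 UMIs.

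**Figure D2:**
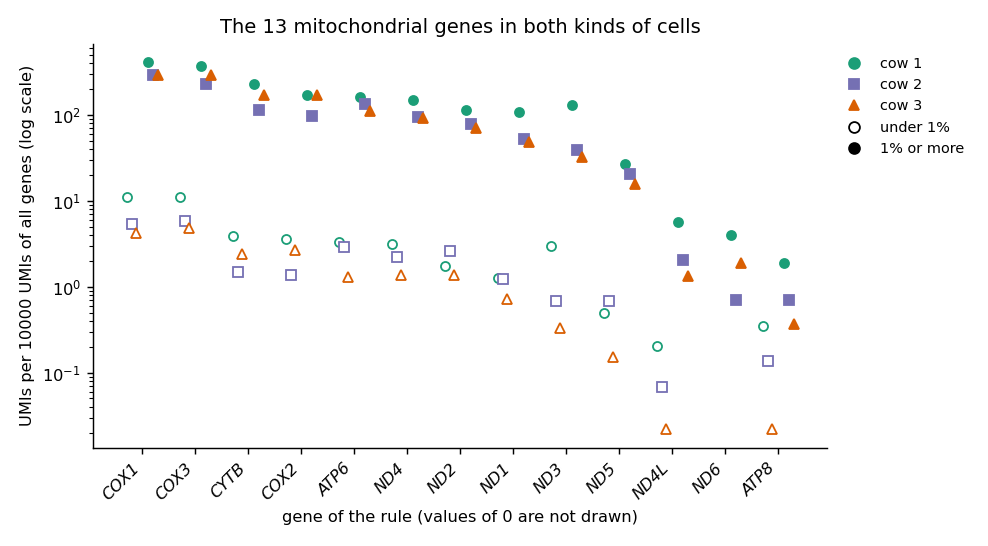
Level of each of the 13 mitochondrial genes per 10000 UMIs of all genes (log axis), with open symbols for low-mitochondrial cells and filled symbols for other cells of each cow; levels of 0 (*ND6* in low-mitochondrial cells) are not drawn. Every drawn open symbol lies below the filled symbols of the same cow, and the order of the abundant genes is similar in both.

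Low-mitochondrial cells also held less RNA of other genes. UMIs of all genes but the 13 are called nuclear UMIs here. They still include 22 identifiers without a gene name whose numbers lie among those of the 13 genes. Whether these are ribosomal or transfer RNA genes of the mitochondrial genome could not be checked here. The median was 2803, 3767 and 2870 nuclear UMIs per low-mitochondrial cell in cows 1, 2 and 3, and 8615, 10633 and 8503 per other cell. The ratio was 0.325, 0.354 and 0.338 (geometric mean 0.339). Its spread between cows was small, but 3 pairs cannot reach a two-sided p under 0.25 in an exact sign-flip permutation test, and 0.25 was the value found. Low-mitochondrial cells had a median of 970, 1008 and 916 nuclear genes, and other cells 2132, 2081 and 2019. When every cell was thinned to 1500 nuclear UMIs, which left out 14, 2 and 18 shallower low-mitochondrial cells and 92, 7 and 16 other cells, the medians were 619, 577 and 601 genes against 650, 571 and 627. At equal depth the number of genes per cell was therefore close between both, and not lower in every cow.

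The cells were keratinocytes by their markers, but the leading marker marked only some of them. *KRT5*, the type II keratin of basal keratinocytes, was found in 82.1%, 93.1% and 91.1% of low-mitochondrial cells at 1500 UMIs (98.8%, 98.8% and 99.9% of other cells). Summed levels of 12 keratinocyte markers were 113, 108 and 252 per 10000 nuclear UMIs against 100, 100 and 167 in other cells. These markers moved both ways: 4 were higher, 3 were lower and 5 were not called, beside 4.6% higher and 7.93% lower of all tested genes. *BPIFA2C*, a secreted protein of the BPI fold family, had no UMI in 35, 24 and 82 of the low-mitochondrial cells. Cells with at least 5 *BPIFA2C* UMIs per 10000 nuclear UMIs are called *BPIFA2C*-rich here. These were 41, 7 and 27 low-mitochondrial cells, which is 44.6%, 22.6% and 22.7% of them, and 245, 122 and 103 other cells (7.48%, 1.66% and 1.05%). This chosen cut thus split the low-mitochondrial cells into a *BPIFA2C*-rich and a larger *BPIFA2C*-poor group, and the 4 markers of the label fit the first of these best. Whether the groups are distinct populations was not tested. *BPIFA2C* UMIs were found in 57, 7 and 37 low-mitochondrial cells, so some poor cells held them. Shallow cells reach the cut with fewer UMIs than deep cells, and the low-mitochondrial cells were the shallower ones. Markers of other cell types were near 0. Genes of fibroblasts and of smooth muscle had 0 UMIs in low-mitochondrial cells, and the summed lymphocyte markers were at 0.0680 to 0.285 per 10000 nuclear UMIs (0.0423 to 0.0504 in other cells), where *CD3E* of the T cell receptor was higher on 8 UMIs (not called without cow 1 or without cow 3). Of the neutrophil and macrophage markers, 7 of 16 could be tested. *AIF1*, a macrophage calcium-binding protein, was higher and *CD14*, a receptor for bacterial lipopolysaccharide, was lower, but *AIF1* was not called without cow 3, nor *CD14* when any cow was left out. The summed level of these markers was 0.413 to 0.788 against 0.304 to 0.477. The part of other cell types in the results was not tested further.

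Counts were then summed per cow over the low-mitochondrial and over the other cells, and edgeR's quasi-likelihood test compared the paired sums with Benjamini-Hochberg adjustment over all 10640 genes that passed the filter on low counts. Levels below are UMIs per 10000 nuclear UMIs in these sums, in the order cow 1, cow 2, cow 3, and differences are fitted log2 fold changes of low-mitochondrial over other cells with their SE. Each SE was taken from edgeR's test statistic, which shares spread across genes, and is not the spread of the difference between cows. A sum cannot tell fewer cells with a transcript from less of it per cell. Of the tested genes, 489 were higher (4.6%) and 844 were lower (7.93%) in low-mitochondrial cells (12.5% in either direction), where a call needed an adjusted p below 0.05 and a log2 difference beyond 0.25, and 415 and 812 of these moved the same way in all 3 cows. The median over all tested genes was −0.32. Higher genes made up 36.7% of the calls. DESeq2 turned this to 53.1%, with 383 higher and 338 lower genes, and with other cells sampled to a similar depth it was 47.7%, with 790 higher and 865 lower of 4794 tested genes and a median of −0.03. Without the pairing by cow, 139 and 239 genes were called. Leaving out cow 1 gave 247 higher and 387 lower genes, and leaving out cow 3 gave 158 and 328. The sums of low-mitochondrial cells held 339225, 147091 and 456719 nuclear UMIs, and 71 of the lower genes had no UMI in any of them. Such genes passed the filter on counts through the other cells alone and could only come out lower. Those named below with 0 UMIs in all low-mitochondrial cells are therefore a description, although the counts of calls include them.

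*BPIFA2C* itself was at 65.8, 6.60 and 65.3 in low-mitochondrial cells and at 2.09, 0.554 and 0.450 in other cells. The groups did not overlap, and cow 2 was about 10 times below the other cows in the first group. The log2 difference was 5.26 (SE 0.21, edgeR adjusted p = 7.46e-130), but leaving out cow 2 or cow 3 moved it by more than this SE. *KRT6A*, a keratin of activated and suprabasal keratinocytes, was at 29.4, 8.63 and 77.7 against 2.74, 2.68 and 5.26 (3.06). *S100A8*, a calcium-binding antimicrobial protein, was at 24.4, 12.8 and 69.0 against 5.58, 2.40 and 3.85 (2.88). *TGM3*, a transglutaminase that crosslinks the cornified envelope, was at 0.914, 0.136 and 1.18 against 0.0594, 0.0403 and 0.0380 (4.16). In each of these genes every low-mitochondrial sum lay above every other sum, with cow 2 lowest, as was the case for 6.33% of all tested genes. Leaving out cow 2 moved *BPIFA2C* to 6.18 and *KRT6A* to 3.75, and leaving out cow 3 moved *BPIFA2C*, *S100A8* and *TGM3* to 4.24, 2.17 and 3.43, all still called. The share of cells with a UMI at 1500 UMIs was higher in all 3 cows for *BPIFA2C*, *KRT6A* and *S100A8*, but for *TGM3* in cows 1 and 3 only, with 0 of 29 low-mitochondrial cells of cow 2 against 0.380% of other cells. For *KRT6A* it was 57.7%, 48.3% and 75.2% of low-mitochondrial cells and 20.6%, 20.9% and 34.1% of other cells, and for *BPIFA2C* 53.8%, 20.7% and 27.7% against 9.55%, 2.50% and 1.77% (62.0%, 22.6% and 31.1% against 23.2%, 6.66% and 4.78% before thinning). Only epithelial cells are in the matrix, so the background of free RNA could not be read from another cell type.

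Of 33 genes of the cornified envelope and late differentiation in the matrix 13 passed the filter on counts, 8 were higher and none was lower, and 5 were higher without the pairing by cow. *CALML5*, a calcium sensor of late keratinocytes, was at 0.796, 0.340 and 4.12 against 0.0124, 0.0110 and 0.0223 (6.66). *MAL*, a membrane raft protein, was at 1.24, 0.272 and 2.15 against 0.0259, 0.00418 and 0.0136 (6.52). It passed the filter on counts only with its low-mitochondrial sums, so its difference is a description, although it is counted among the 8. Without cow 3 the differences of *CALML5* and *MAL* were 5.57 and 5.65, and the count of the list was 5. *TMEM79*, a protein of lamellar granule secretion, rose by 1.78. Desmosome genes moved both ways, with 3 higher and 2 lower of 10 tested. *PERP* (0.65) and *PKP1* (1.88) were higher, while *DSP*, which anchors keratins to desmosomes, was at 2.18, 0.476 and 1.69 against 4.51, 1.50 and 3.20 (−1.05), and the cadherin *DSG2* had 0 UMIs in low-mitochondrial cells. Without cow 3, *PERP* was not called (0.37) and *PKP1* was at 1.28.

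Of 13 tested keratins 5 were higher, 4 were lower and 4 did not pass. Besides *KRT6A*, *KRT17*, a stress-induced type I keratin, was at 80.5, 37.3 and 184 against 18.8, 21.5 and 30.1 (1.85, and 2.45 without cow 2), with no overlap. *KRT15*, a keratin of basal cells, fell from 59.0, 64.0 and 60.8 in other cells to 40.0, 34.9 and 41.8 (−0.67), and *KRT19* fell by 1.27. *KRT5* was at 36.8, 37.7 and 57.7 against 45.6, 44.8 and 79.9 (−0.35, SE 0.16, edgeR adjusted p = 0.154). It was lower in 3 of 3 cows but did not pass the threshold, except without cow 1 (−0.42). *KRT10*, a keratin of the spinous layer, was low in both (0.413, 0.680 and 0.263 against 0.322, 0.282 and 0.256) and did not pass either. *KRT14* and *KRT6B* rested on cow 3. *KRT14* was at 28.7, 43.4 and 139 against 23.7, 31.7 and 55.7 (0.67), was not called without cow 3 (0.26), and 1 cell held 30.6% of its low-mitochondrial UMIs in that cow. *KRT6B* was at 0.177, 0.816 and 51.3 against 0.0102, 0.121 and 0.312 (5.34, 3.00 without cow 3 and 6.78 without cow 2), where 1 cell held 35.1%. *KRT15* was not called without cow 3 (−0.82).

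Of 12 tested S100 genes 5 were higher and none was lower, and 3 were higher without the pairing by cow. *S100A12*, a neutrophil and epithelial defence protein, was the most abundant of the genes that rose, at 138, 112 and 260 against 35.5, 28.4 and 30.5 (2.33, SE 0.17, edgeR adjusted p = 1.35e-40). *S100A9*, the partner of *S100A8*, was at 1.44, 0.816 and 44.0 against 0.555, 0.484 and 0.476, and the difference of 2.99 became 4.18 without cow 1, 4.35 without cow 2 and 1.08 without cow 3, in which 1 cell held 38.6% of the UMIs. Without cow 3, *S100A2* (0.67 in all cows) and *S100A10* (0.62) were not called and 3 S100 genes were. *WFDC18*, a secreted whey acidic protein that is in none of the lists, was at 10.5, 4.62 and 28.1 against 0.310, 0.308 and 0.301 (5.24, 4.45 without cow 3 and 5.93 without cow 2). Its level in other cells was nearly the same in the 3 cows, and every low-mitochondrial sum was at least 10 times higher. Of the secreted surface defence genes 13 of 29 could be tested, 6 were higher and *RNASE4*, a secreted ribonuclease, was lower. Leaving out cow 1 gave 3 higher genes, leaving out cow 3 gave 1, and *RNASE4* was not called without either of them. *LYZ1*, a lysozyme, had 399 of its 423 UMIs of cow 3 in 1 cell and was not called without that cow (edgeR adjusted p = 0.771). It passed the filter on counts only with its low-mitochondrial sums, so its difference is a description, although it is counted among the 6. The summed level of the 29 secreted genes was 70.5, 13.3 and 80.6 against 6.58 to 8.03, but 4.69, 6.73 and 15.3 against 5.95, 6.65 and 6.13 without *BPIFA2C*. Without *LYZ1* as well it was 4.63 to 6.73 against 5.94 to 6.65, so the higher sum was that of *BPIFA2C* and, in cow 3, of *LYZ1*. Protease inhibitors, which limit shedding enzymes in squamous epithelia, had 7 higher and 1 lower of 14 tested genes, with 4 higher without cow 1, 3 without cow 3 and 3 without the pairing by cow. *CSTB*, a cathepsin inhibitor, was at 2.30, 1.50 and 4.51 against 0.257, 0.104 and 0.262 (3.73).

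Of 5 tested connexin and pannexin genes, whose products form channels between cells or across the membrane, 2 were higher and none was lower, with a median of −0.40. *GJB2*, which encodes connexin 26, was at 4.92, 0.204 and 8.74 against 0.0817, 0.0347 and 0.0585 (6.03, SE 0.26, edgeR adjusted p = 7.01e-112). *GJA1*, which encodes connexin 43, was at 5.90, 0.816 and 3.44 against 1.59, 0.453 and 0.291 (2.33). *GJB2* did not overlap between the groups, whereas *GJA1* of cow 2 in low-mitochondrial cells lay below *GJA1* of cow 1 in other cells. Without cow 3 both were still called, at 5.10 and 1.50, and *GJB2* was at 6.70 without cow 2. *PHGR1*, a protein rich in proline, histidine and glycine, was at 5.51, 1.22 and 3.15 against 0.215, 0.0224 and 0.0459 (5.49), and *CKB*, the cytosolic creatine kinase, was at 5.10, 1.09 and 8.80 against 0.627, 0.193 and 0.791 (3.12). The unnamed identifier ENSBTAG00000048835 was at 3.24, 1.22 and 25.9 against 0.0629, 0.0235 and 0.0452 (7.01, and 5.62 to 7.73 when 1 cow was left out).

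**Figure D3:**
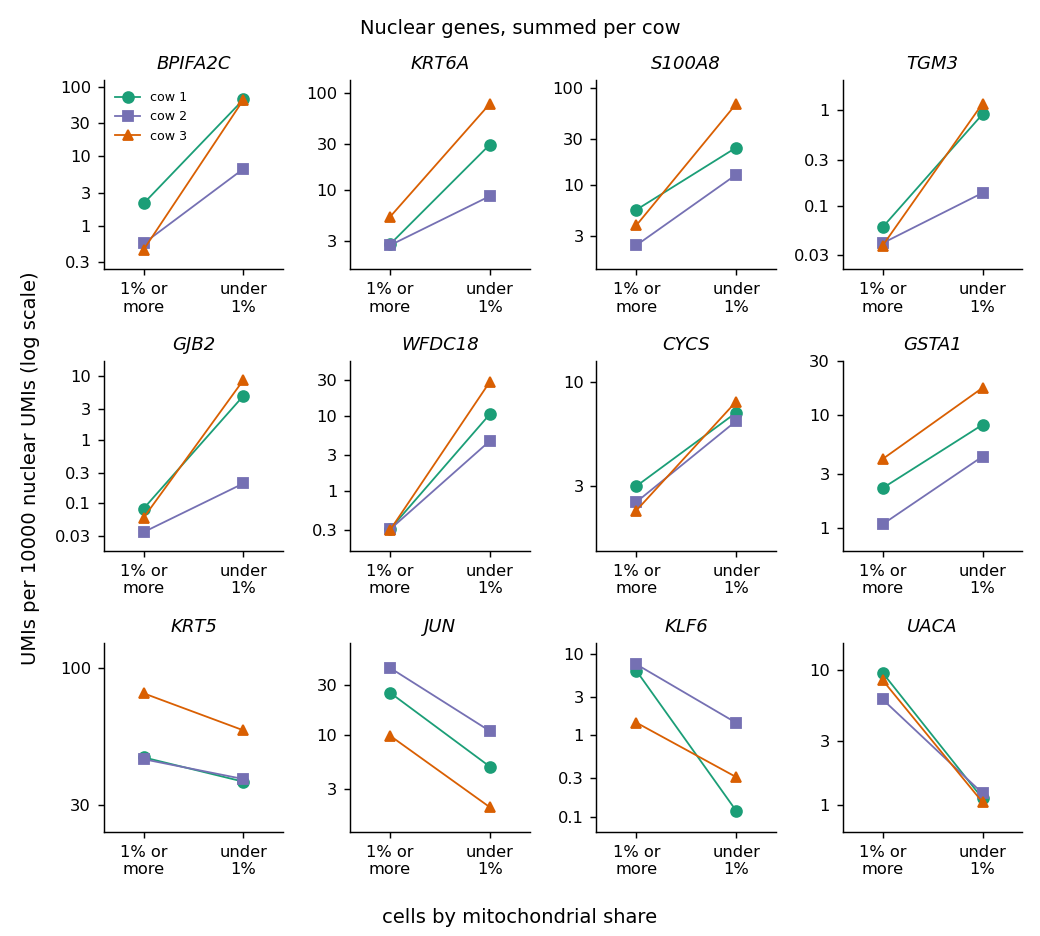
Levels of 12 genes in UMIs per 10000 nuclear UMIs (log axes), each line joining the other cells and the low-mitochondrial cells of 1 cow. Lines of *BPIFA2C*, *KRT6A*, *S100A8*, *TGM3*, *GJB2*, *WFDC18*, *CYCS* and *GSTA1* rise in every cow, those of *JUN*, *KLF6* and *UACA* fall in every cow, and those of *KRT5*, which did not pass the threshold, fall slightly.

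As a share of nuclear UMIs, nuclear genes for mitochondrial proteins were not reduced along with the mitochondrial transcripts. Low-mitochondrial cells held fewer nuclear UMIs, so this does not describe the number of transcripts per cell. Of 78 nuclear-encoded subunits and carriers of the respiratory chain 33 were higher, none was lower, and 74 had a positive difference, with a median of 0.45 beside −0.32 for all genes. Their summed level was 394, 413 and 443 in low-mitochondrial cells and 293, 290 and 348 in other cells, with no overlap. *CYCS*, cytochrome c, was at 7.04, 6.39 and 8.01 against 3.00, 2.49 and 2.26 (1.48, SE 0.18, edgeR adjusted p = 1.90e-13). *NDUFB2* of complex I was at 0.619, 0.816 and 1.05 against 0.359, 0.338 and 0.479 (1.08), but was not called without cow 3 (0.91). *COX4I1* of cytochrome c oxidase was at 23.2 ± 1.60 against 22.8 ± 1.75 (SD, n = 3; 0.02) and did not pass. The count of calls was sensitive to the cows, and the pairing, with 17 higher without cow 1, 4 without cow 3 and 1 without the pairing by cow, and it was 70 when the other cells were sampled to a similar depth. A lower call appeared in this list in 1 alternative, scaling by total nuclear UMIs only, where 1 gene was lower.

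Other mitochondrial groups moved in the same direction or little. Of 75 tested genes of the mitochondrial ribosome 11 were higher and none was lower (median 0.32), with 1 higher without cow 1 and 3 without cow 3. Without the pairing by cow edgeR called 0 of these higher, with 11 higher at an unadjusted p under 0.05, and DESeq2 with the pairing called 8. Of 43 tested matrix enzymes 10 were higher and 1 was lower (median 0.38), with 5 higher without cow 1, 2 without cow 3 and 1 without the pairing by cow. *ETFA*, which passes electrons from fatty acid oxidation to the respiratory chain, was at 3.65, 4.21 and 4.05 against 1.76, 1.82 and 2.20 (1.04), with no overlap. *CPT1A*, which brings fatty acids into mitochondria, was the enzyme that was lower (−0.97), and it was not called when any cow was left out. Of 25 genes for upkeep and transcription of mitochondrial DNA, *SSBP1*, a single-strand binding protein, was higher (0.84, not called without cow 3) and *PPARGC1B*, a coactivator of mitochondrial biogenesis, had 0 UMIs in low-mitochondrial cells and 0.242, 0.108 and 0.116 in the others (not called without cow 1). Of 34 genes of mitophagy and mitochondrial dynamics none was higher, and *GABARAPL1* and *ATG16L1*, which serve autophagosome formation, were lower. That count is not above the 7.93% of all tested genes that were lower, so it is not a result about the list. *GABARAPL1* was at 0.118, 0.0680 and 0.110 against 1.10, 0.665 and 0.356 (−2.60, and −3.27 without cow 3), and *ATG16L1* was not called without cow 1 or without cow 3. The list's median was −0.03. Cytosolic ribosome genes, as a second large class of housekeeping transcripts, had 1 higher and 4 lower of 81 and a median of −0.14. Beside these counts, 4.6% of all tested genes were higher and 7.93% were lower.

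Antioxidant genes of the NRF2 and glutathione system were higher, with 14 higher and none lower of 26 tested (median 0.56), 8 higher without cow 3 and 4 without the pairing by cow. Their sum was 195, 182 and 294 against 96.7, 93.5 and 112. *FTH1*, the heavy chain of the iron store ferritin, was at 71.4, 41.9 and 76.3 against 20.2, 16.2 and 18.0 (1.75). *GSTA1*, a glutathione transferase, was at 8.20, 4.28 and 17.4 against 2.25, 1.07 and 4.07 (1.99). For *FTH1* and *GSTA1* every low-mitochondrial sum lay above every other sum. High *GSTA1* was not particular to low-mitochondrial cells, since the *BPIFA2C*-rich other cells were at 8.53, 10.7 and 31.1, and the sum of the list in them was 160, 185 and 220. *FTL*, the ferritin light chain, was at 11.9, 12.4 and 10.1 against 10.3, 8.78 and 9.33 (0.26) and did not pass. Among genes of fatty acid binding and the lipid barrier 5 were higher and 2 lower of 23. *FABP5*, an epidermal fatty acid binding protein, was at 44.7, 48.0 and 56.8 against 16.9, 14.2 and 23.7 (1.46), *FABP4* rose by 1.68 (0.97 without cow 3), and *RBP2*, a retinol binding protein, was at 2.62, 1.09 and 1.71 against 0.230, 0.103 and 0.0482 (4.10, and 3.40 without cow 3). In *BPIFA2C*-rich other cells *FABP5* was at 32.3, 33.2 and 52.5, between both groups in each cow, and *FABP4* was at 4.17, 1.80 and 3.19. Of 16 glycolysis genes 4 were higher and none lower, among them *LDHA*, the lactate dehydrogenase subunit, at 12.2 ± 2.37 against 6.29 ± 0.444 (0.93, not called without cow 3). Among VFA carriers and ion transport genes 4 were higher and 1 was lower of 21 tested. The proton exchanger *SLC9A3* was higher on 16 UMIs and not called without cow 1, and *ATP1B1*, a sodium pump subunit, had 0 UMIs and was not called without cow 1 or without cow 3. Among *BPIFA2C*-rich cells of cows 1 and 3, 1 gene of this list was higher and 3 were lower of 12 tested. The sum of the list was 44.2, 41.6 and 29.6 against 61.7, 51.6 and 60.9 in *BPIFA2C*-rich cells of the 3 cows. Among *BPIFA2C*-poor cells it was 48.2, 42.4 and 45.7 against 35.2, 30.7 and 36.1.

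Immediate-early genes, whose short-lived transcripts respond within minutes to stimuli, were lower. Of 23 tested 17 were lower and none was higher (median −1.48), and 14 to 16 were lower when 1 cow was left out, but only 2 without the pairing by cow. Their sum was 23.7, 42.3 and 11.6 against 84.9, 126 and 27.5, and was lower in each cow although cows overlapped. *JUN*, a subunit of the AP-1 transcription factor, was at 4.92, 10.9 and 1.99 against 25.6, 44.5 and 9.81 (−2.25, SE 0.18, edgeR adjusted p = 1.86e-32). *KLF6*, a zinc finger factor, was at 0.118, 1.43 and 0.306 against 6.27, 7.51 and 1.44 (−3.21, and −2.40 without cow 1), and *FOSB* fell by 2.75 (2.14 without cow 1 and 3.95 without cow 2 on the same scale). The order of the cows, highest in cow 2 and lowest in cow 3, was the same in both groups for *JUN* and for the sum. Of 28 heat shock and unfolded protein genes 3 were higher and 6 were lower. *HSPA1A*, the inducible HSP70, was at 11.5, 4.49 and 4.38 against 18.3, 10.8 and 8.11 (−0.92), while the small heat shock protein *HSPB1* was higher (0.64, not called without cow 3).

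Of 24 basal and hemidesmosome genes 14 were lower, 9 did not pass and *KRT14* alone was higher (median −1.42), and 10 were lower without cow 3 and 8 without the pairing by cow. The sum of the list did not fall in every cow, at 132, 159 and 264 against 168, 169 and 234. *ITGA2*, a collagen receptor subunit, had 1 UMI in all low-mitochondrial cells together, and *DST*, which ties keratins to hemidesmosomes, had 0. Notch signalling, by which touching keratinocytes switch toward differentiation, had 6 lower and none higher of 13 tested genes (median −1.63, and 4 lower without cow 1). The ligand *JAG2* was at 0.265, 0.204 and 0.263 against 1.90, 1.22 and 1.04 (−2.39), and the ligand *JAG1* was at 0.354, 0.204 and 0.219 against 1.66, 1.15 and 1.11 (−2.28). *RBPJ*, the DNA-binding partner of Notch, fell by 1.63 and the target *HES1* fell by 1.00 (not called without cow 1). For these 4 genes every low-mitochondrial sum was below every other sum, as for 24.7% of all tested genes. *DLK2*, a Notch inhibitor that the study used as a granule cell marker, was at 0.0590, 0.612 and 0.153 against 0.840, 0.949 and 0.422 (−1.73), with overlap between cows, and was not called without cow 1. Outside these lists, *UACA*, a coiled-coil protein with ankyrin repeats, was at 1.12, 1.22 and 1.05 against 9.61, 6.10 and 8.47 (−2.85). *SYNE2*, which links the nucleus to the cytoskeleton, was at 2.98, 1.22 and 0.504 against 11.2, 5.27 and 7.87 (−2.59), and the receptor *FGFR2* was at 0.472, 0.612 and 0.197 against 2.93, 2.27 and 1.42 (−2.49). Among lower genes with a mean of at least 2 in the other cells, the largest differences were in 2 of the 22 unnamed identifiers numbered among the 13 mitochondrial genes. Since these may be mitochondrial RNAs, which the choice of cells would then have fixed, their values are a description and not a result on nuclear genes. Leaving out all 22 gave 490 higher and 842 lower genes. ENSBTAG00000043567 was at 4.60, 7.55 and 2.50 against 229, 232 and 212 (−5.67), and ENSBTAG00000043570 was at 3.83, 7.95 and 1.79 against 221, 158 and 151 (−5.53). The unnamed identifiers ENSBTAG00000052187, at 0.413, 1.77 and 0.109 against 17.5, 7.67 and 6.26 (−4.24), ENSBTAG00000052759 (−3.87) and ENSBTAG00000051082 (−2.72), which are not among the 22, were lower as well.

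**Figure D4:**
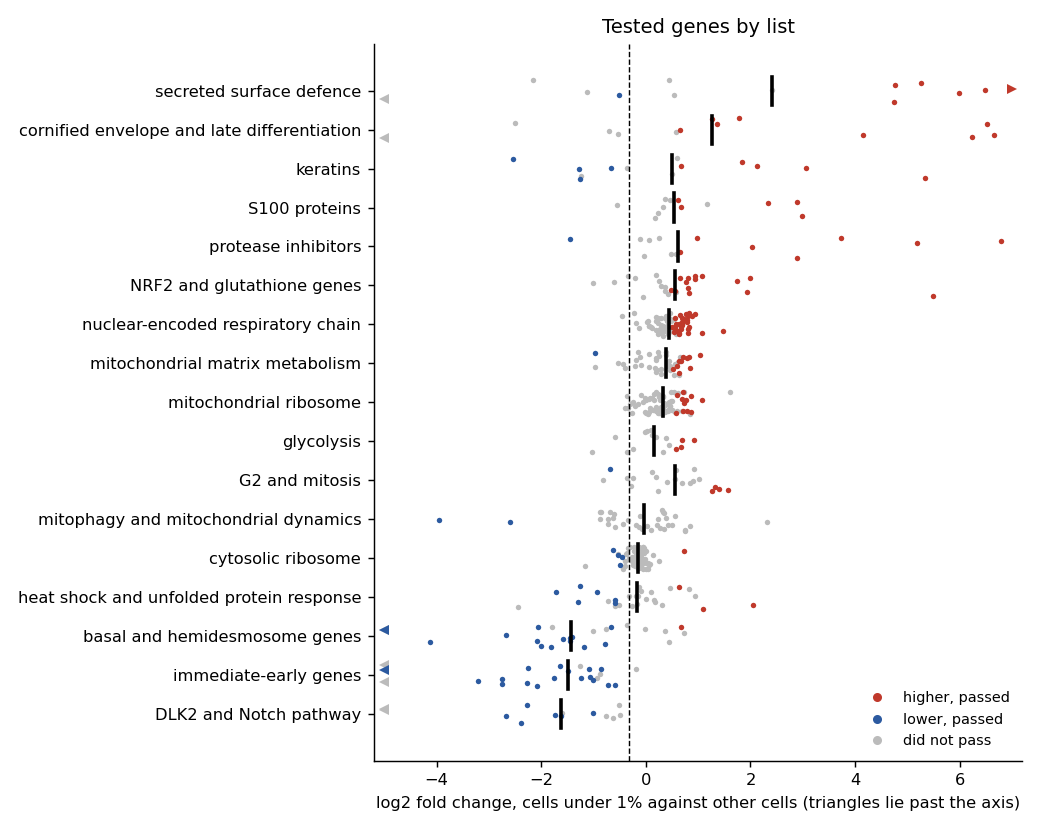
Log2 fold change of low-mitochondrial over other cells for each tested gene in 17 lists, with passed genes in red (higher) or blue (lower) and the rest in grey; black bars are list medians, the dashed line is the median of all tested genes (−0.32), and 10 points past the axis are drawn as triangles. The respiratory chain and the NRF2 and glutathione list sit to the right of the dashed line, and the immediate-early, basal and Notch lists sit to the left.

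Of 20 genes of G2 and mitosis 4 were higher and *CENPF* was lower, with a median of 0.56. *UBE2C*, which drives the exit from mitosis, was at 0.884, 1.02 and 1.16 against 0.275, 0.169 and 0.848 (1.40), while *CCNB1* (1.58) was higher only in cows 1 and 2 and was not called without cow 2, and *CENPF* (−0.69) was at 0.017 without cow 3. *MKI67*, a marker of dividing cells, was at 0.708, 0.136 and 0.131 against 0.673, 0.147 and 0.799 (−0.81, edgeR adjusted p = 0.0843), and it passed without cow 1 (−2.07) and without cow 2 (−0.86). Of the remaining genes that the study used for cell types, *IGFBP5* (−0.05) and *TM4SF1* (−0.30) did not pass. Genes of apoptosis had 2 higher and 2 lower of 25, beside 4.6% higher and 7.93% lower of all tested genes.

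The 2 groups made by this cut were then separated, because *BPIFA2C*-rich cells were more common among the low-mitochondrial ones. Both comparisons that use *BPIFA2C*-poor cells were added after these values were seen. Of the *BPIFA2C*-rich cells 14.3%, 5.43% and 20.8% were low-mitochondrial, and of the *BPIFA2C*-poor cells 1.65%, 0.330% and 0.936%. The median nuclear UMIs were 3032, 2584 and 4041 in rich and 2756, 4332 and 2538 in poor low-mitochondrial cells, so both were shallow. In cow 3 the deepest cell held 17.4% of the UMIs of its *BPIFA2C*-rich low-mitochondrial cells. *BPIFA2C* chose the cells and was not tested in these comparisons. All comparisons share cells, so their values are given side by side without a test of their overlap.

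*BPIFA2C*-rich low-mitochondrial cells were first set against *BPIFA2C*-rich other cells in cows 1 and 3, since cow 2 had only 7 of the former and a sum needed 10 cells. The groups were not alike in *BPIFA2C* itself, which was at 134 and 175 in these low-mitochondrial cells and at 18.2 and 26.4 in these other cells. Of 5153 tested genes 186 were higher (3.61%) and 168 were lower (3.26%), together 6.87%, with a median of −0.08. Higher genes made up 52.5% of these calls, and 29.7% (122 higher and 289 lower) when sums were scaled by total nuclear UMIs only, which moved the median to −0.31. Of the 5 largest increases, 3 were in genes with a name. *SPINK5*, an inhibitor of the kallikreins that shed corneocytes, was at 3.63 and 7.84 against 0.0195 and 0.251 (6.07). *LYPD2*, a surface protein of the Ly6 family, was at 2.42 and 2.36 against 0.0684 and 0.0533 (5.44), and *TMPRSS11BNL*, named after a membrane serine protease, was at 1.15 and 2.89 against 0.0261 and 0.152 (4.92). *SPINK5*, *LYPD2* and *TMPRSS11BNL* passed the filter on counts only with their low-mitochondrial sums, so their differences are given as a description. The rest of the 5 were the unnamed identifiers ENSBTAG00000046944, at 4.91 and 7.42 against 0.231 and 0.304 (4.72), and ENSBTAG00000048720, at 3.27 and 10.9 against 0.140 and 0.571 (4.61). Of 33 cornified envelope genes 11 passed the filter on counts, some of them only with their low-mitochondrial sums, so their calls are not counted here. *CALML5* was such a gene, at 1.64 and 10.8 against 0.0619 and 0.693 (4.47), and is given as a description. The sum of the 33 genes was 28.2 and 60.1 against 11.7 and 13.9. In cow 2, which was not in the test, it was 11.4 in the 7 low-mitochondrial cells against 12.4, and *TGM3* was at 0.392 against 0.587. *GJB2* was at 9.94 and 23.2 against 0.716 and 2.43 (3.74), whereas *GJA1* was at 9.51 and 5.89 against 8.94 and 6.24 (0.22) and did not pass. *CYCS*, at 7.03 and 7.19 against 5.73 and 6.25 (0.47), did not pass, and none of 77 respiratory chain genes was called in either direction. *KRT5* fell by 1.00 on the log2 scale, at 24.4 and 20.9 against 41.8 and 66.2. *COL17A1*, a hemidesmosome collagen named after its values were seen, was lower as well, at 1.33 and 0.177 against 5.03 and 2.75 (−2.30). *KRT14* went the other way, at 32.2 and 273 against 20.0 and 54.7. Of 17 tested basal and hemidesmosome genes 7 were lower, 1 was higher and 9 did not pass. *KLF6* had 0 UMIs and 0.354 against 4.24 and 1.17 (−3.54), and 5 of 16 immediate-early genes were lower. Of 14 tested genes of G2 and mitosis none was higher, 1 was lower and 2 had a positive difference (median −0.90).

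*BPIFA2C*-poor low-mitochondrial cells were set against *BPIFA2C*-poor other cells in all 3 cows. Of 10395 tested genes 222 were higher (2.14%) and 533 were lower (5.13%), together 7.26%, with a median of −0.37. Higher genes made up 29.4% of these calls, and 44.5% (378 higher and 472 lower) with the size factors of DESeq2. The 222 higher and 533 lower genes became 99 and 225 without cow 1, 338 and 353 without cow 2, and 66 and 220 without cow 3. Of the 489 genes higher over all cells 200 were among them (40.9% of the 489 and 90.1% of the 222), and of the 844 lower genes 488 (57.8% of the 844 and 91.6% of the 533). *S100A12* was at 91.4, 75.1 and 110 against 30.1, 26.4 and 29.1 (1.54), and *S100A8* was at 14.9, 5.92 and 17.1 against 4.25, 2.08 and 3.53 (1.77). *GSTA1* was at 6.32, 3.12 and 17.6 against 1.56, 0.835 and 3.67 (1.97), and *FABP4* was at 2.01, 2.38 and 4.49 against 0.842, 0.902 and 0.600 (1.85). *CKS2*, a cell cycle kinase subunit, was at 2.30, 3.78 and 1.43 against 0.581, 0.389 and 1.28 (1.64). Of 20 genes of G2 and mitosis 5 were higher, none was lower and 16 had a positive difference (median 0.86). Their sum was 13.3 and 10.3 against 5.95 and 1.93 in cows 1 and 2, but 7.32 against 9.86 in cow 3. The same sum was 3.88, 3.53 and 3.60 in *BPIFA2C*-rich low-mitochondrial cells. In the comparison of rich with poor low-mitochondrial cells given below, 4 of these 20 genes could be tested and none was called (median −1.19). The list as a whole was not tested between them. In the *BPIFA2C*-poor comparison *CYCS* passed, at 7.06, 5.92 and 8.50 against 2.70, 2.40 and 2.20 (1.44), as did 25 of 78 respiratory chain genes, all higher. *JUN* was at 5.80, 12.3 and 1.32 against 26.8, 45.1 and 9.89 (−2.43), and 18 of 23 immediate-early genes and 6 of 13 Notch genes were lower. Cornified envelope genes had 2 higher and 1 lower of 12, and *KRT5* was at 48.6, 42.8 and 79.5 against 46.0, 44.9 and 80.1 (−0.14), which did not pass.

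Within the low-mitochondrial cells, *BPIFA2C*-rich were finally compared with *BPIFA2C*-poor cells in cows 1 and 3. Of 1774 tested genes 117 were higher (6.6%) and 38 were lower (2.14%) in rich cells, together 8.74%, and the median was 0.01. *MAL* (2.54 and 5.78), *SPINK5* (3.63 and 7.84) and *A2ML1*, a protease inhibitor of late keratinocytes (11.1 and 2.83), each had 0 UMIs in the poor cells of both cows, as did 8 of the 117 higher genes in all. Such genes passed the filter on counts through the rich cells alone and could only come out higher, so they are given as a description. *GJB2*, at 9.94 and 23.2 against 0.172 and 0.209 (6.74), also passed the filter through the rich cells alone and is a description. *KRT6A* was at 54.6 and 184 against 5.57 and 14.8 (3.70), and *KRT17* at 135 and 422 against 28.6 and 43.8 (2.99). *SFRP1*, a Wnt inhibitor, was at 1.51 and 0.707 against 4.25 and 3.31 (−1.59), *METTL7A*, a methyltransferase of lipid droplets, was at 4.30 and 1.95 against 11.8 and 8.99 (−1.58), and *KRT5* was at 24.4 and 20.9 against 48.6 and 79.5 (−1.24). *KRT14*, of the same basal list as *KRT5*, went the other way, at 32.2 and 273 against 25.3 and 59.7. Of 33 cornified envelope genes 10 passed the filter, some of them through the rich cells alone, so their calls are not counted here. *CYCS*, at 7.03 and 7.19 against 7.06 and 8.50 (0.10), did not pass, and *JUN*, at 4.00 and 3.12 against 5.80 and 1.32 (0.46), did not either. Without the deepest low-mitochondrial cell of each cow, 92 genes were higher and 17 were lower.

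The lists were also summed in the 4 kinds of cells. The respiratory chain sum was 382, 448 and 365 in *BPIFA2C*-rich and 405, 405 and 490 in *BPIFA2C*-poor low-mitochondrial cells. It was 385, 404 and 456 in *BPIFA2C*-rich other cells, and lowest, at 284, 287 and 347, in *BPIFA2C*-poor other cells. Every low-mitochondrial sum lay above every sum of *BPIFA2C*-poor other cells and overlapped those of *BPIFA2C*-rich other cells. The connexin sum, in contrast, was 19.4, 4.71 and 29.1 in rich and 2.64, 0.329 and 2.33 in poor low-mitochondrial cells, against 9.79, 8.80 and 8.84 in rich and 0.934, 0.454 and 0.434 in poor other cells. In cow 2 the 7 rich low-mitochondrial cells lay below the rich other cells. The sum of the Notch list was 1.39, 0.392 and 1.30 in rich and 1.67, 3.04 and 2.09 in poor low-mitochondrial cells, and 4.78, 3.65 and 2.90 in rich and 7.93, 6.74 and 5.27 in poor other cells. Within each cow both low-mitochondrial sums lay below both sums of other cells.

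**Figure D5:**
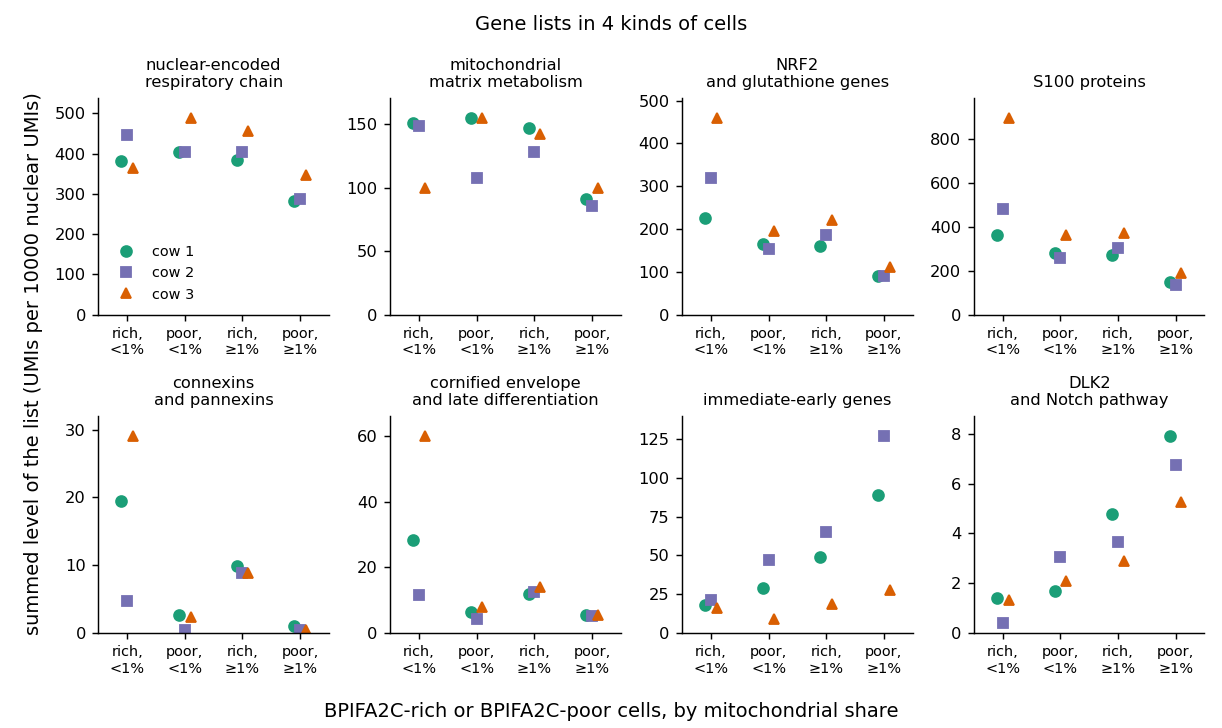
Summed level of 8 gene lists in UMIs per 10000 nuclear UMIs (linear axes from 0) in *BPIFA2C*-rich and *BPIFA2C*-poor cells under 1% and at 1% or more mitochondrial UMIs, with 1 point per cow. The respiratory chain sum is lowest in *BPIFA2C*-poor other cells, and the connexin and cornified envelope sums are higher in *BPIFA2C*-rich than in *BPIFA2C*-poor low-mitochondrial cells of each cow.

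In the space of variable nuclear genes the low-mitochondrial cells lay near each other. Among the 20 nearest neighbours of a low-mitochondrial cell in its own cow, 52.0%, 21.6% and 65.4% were low-mitochondrial, beside a share of 2.39%, 0.392% and 1.02% of the thinned cells. Of the 22 unnamed identifiers 5 were among the variable genes used. When all 22 were left out, the shares were 28.1%, 7.93% and 23.5%, and they were 42.4%, 7.50% and 46.1% for *BPIFA2C*-rich and 14.6%, 8.04% and 15.3% for *BPIFA2C*-poor low-mitochondrial cells. All remained above the share of low-mitochondrial cells in the same cow. Cells of 1 cow share a library, so these shares are a description without a test.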

How the data were processed

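Epithelial cells of 3 cows were profiled with 1 library each. The authors aligned reads to ARS-UCD1.2 with Cell Ranger 3.1.0, filtered cells in Seurat on genes, UMIs and mitochondrial share, ran DoubletFinder and removed other cell types. The deposited matrix holds raw UMI counts per gene and cell. The authors also deposited normalized values, the natural log of 1 plus the count scaled to 10000 UMIs, in a table with gene names. Over 977 rows checked, these values followed from the counts with a largest difference of 5.3e-15, so the names were used for the matrix. The barcode suffix was read as the library number. No doublet caller was run here. The depth behind each sum stands in the report, and thresholds near single UMIs carry counting error.

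UMIs of the 13 genes were left out of sums and library sizes. The quasi-likelihood test of edgeR 4.0.16 (limma 3.58.1, R 4.3.3) used filterByExpr, TMM scaling and the cow as a block, and p-values were adjusted after Benjamini and Hochberg. Calls needed an adjusted p below 0.05 and a log2 difference beyond 0.25. Both sums of a pair came from the same animal, and deviations within pairs correlated at 0.268, 0.173 and 0.176 in cows 1, 2 and 3. With 3 cows, p-values rest on a spread shared across genes. Cells were handled in Python 3.11.15 (scanpy 1.11.5, scikit-learn 1.9.0, scipy 1.17.1, numpy 2.4.6, matplotlib 3.10.9, pandas 2.3.3), with 2000 variable genes, 30 components and 20 neighbours. DESeq2 1.42.0 was an alternative, beside other scalings, filters, thresholds, depths and cows left out. The fits were tested on simulated data.

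The cells and gene lists were chosen with earlier results of these data known. Named genes are the 4 markers, the 13 mitochondrial genes, 12 genes of the study, the 10 largest calls per direction with a mean of at least 2 UMIs per 10000 that moved the same way in all cows, 5 per direction in the other comparisons, and in each list up to 4 abundant and up to 2 most changed members. Genomic positions and sequences were not used here, since the reference table at hand is of another assembly. Selected genes that the text does not name enter its counts only.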

Additional observations from a re-analysis of the deposited data

How the results depend on the processing

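For low-mitochondrial against other cells, the 489 higher and 844 lower genes became 139 and 239 without the replicate block by cow, 790 higher with other cells of similar depth, 243 higher at a log2 threshold of 1, 338 lower with DESeq2, and 222 and 533 in *BPIFA2C*-poor cells. Leaving out 1 cow gave 158 to 541 higher and 328 to 739 lower. For *BPIFA2C*-rich cells, 186 higher and 168 lower became 32 and 5 without the block, 89 and 34 with DESeq2, 122 and 289 scaled by total UMIs, and 107 lower at 20 *BPIFA2C* UMIs per 10000. Leaving out a cow could not be fitted there. For *BPIFA2C*-poor cells, 222 and 533 became 21 and 90 without the block, 180 lower with DESeq2, 378 higher with DESeq2 size factors, and 66 to 338 higher and 220 to 353 lower with 1 cow left out. For *BPIFA2C*-rich against poor low-mitochondrial cells, 117 and 38 became 26 and 0 without the block (edgeR, with 62 lower at an unadjusted p under 0.05), 47 and 6 with DESeq2, 78 lower with DESeq2 size factors and 17 lower without the deepest cells. Higher calls were 36.7% of the first comparison's calls but 53.1% with DESeq2 and 47.7% at similar depth, 52.5% of the second's but 29.7% by total UMIs, 86.5% without the block and 72.4% with DESeq2, and 29.4% of the third's but 44.5% with size factors and 56.5% with DESeq2. *CENPF* (−0.69) ranged from −1.25 to 0.017 with 1 cow left out. The mean share of low-mitochondrial neighbours moved from 46.3% to 19.9% without the unnamed identifiers. The cause of these changes was not tested. Over the 179 named genes, 2466 of 2820 alternative values kept direction and side of the threshold, and the 48 calls lost without the block were the most of any setting. The similar-depth cells of cow 3 had a median of 4097 nuclear UMIs against 2870, so that match was loose. The few UMIs of low-mitochondrial cells limit what could be detected.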
